A study of Mus musculus with 18 samples.

Results

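Foxp3+ regulatory T cells (Tregs) with and without CD25, the IL-2Rα chain encoded by *Il2ra*, were compared for 8 abundant or lymphocyte long noncoding RNAs. These RNAs were *Gm26917*, *Malat1*, *Neat1*, *Gas5*, *Mir17hg*, *Mir155hg*, *Pvt1* and *Kcnq1ot1*. They were taken by symbol from the 50600 gene identifiers of the count table, and *Gm26917* was selected on its large share of these counts, so its level is given as a description. All 8 RNAs were found in the table, and all 8 passed the filter on low counts in both tissues.

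RNA-seq gene counts covered 18 samples of sorted Foxp3+ Tregs, each from 1 mouse. Thymic CD25 KO Tregs were taken at 3–4 weeks of age from 5 CD25 cKO mice. These mice carry a floxed *Il2ra* and a Foxp3-YFP/Cre allele, so the deletion occurs in cells that have turned on *Foxp3*, and they had been “cured” of autoimmunity by WT splenocytes given after birth. Thymic WT Tregs came from 5 Foxp3/RFP reporter mice of the same age, so the genotypes in the thymus also differed in their *Foxp3* reporter allele. These WT mice are not described as carrying Cre or as having received splenocytes. In the thymus, loss of CD25 therefore cannot be told apart from the reporter allele, Cre or the splenocyte transfer. The 4 splenic CD25 KO samples were from the line CD25 flox/Foxp3eGFP-Cre-ERT2/R26Y, and the 4 splenic WT samples were from reporter controls. Tamoxifen, which activates this Cre, was started at 7–10 weeks of age, and cells were collected 10–14 days after induction. Tissue, age, mouse model and the date in the library names changed together. A difference between thymic and splenic Tregs therefore cannot be assigned to any of them. What this library date marks is not given in the sources used here.

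Thymic libraries held 17239774 to 23993674 counts, splenic libraries held 25258341 to 32639570, and 3 counts corresponded to at most 0.174 CPM, the count scaled to library size. *Il2ra* was lower in every CD25 KO mouse, at 95.2 to 288 CPM against 526 to 683 CPM for WT in the thymus and at 166 to 208 CPM against 481 to 534 CPM for WT in the spleen. Thymic CD25 KO mice 2 and 4 kept more *Il2ra*, 288 and 236 CPM, than the other 3, which had 95.2 to 105 CPM, so thymic results are also given without these 2 mice. The summed level of 7 Treg markers reached 2998 to 4278 CPM in thymic and 3304 to 3812 CPM in splenic libraries. Of the immature thymocyte markers, *Rag1*, *Rag2* and *Ptcra* had at most 3 counts in every splenic library, whereas the 6 markers summed to 37.5 to 170.3 CPM in WT thymus and 48.9 to 108.8 CPM in CD25 KO thymus. In the spleen, B cell markers summed to 29.6 to 35.4 CPM in WT and 39.0 to 48.6 CPM in CD25 KO mice, and myeloid markers to 16.4 to 23.1 and 21.7 to 28.4 CPM. NK cell markers in the spleen summed to 0.361 to 2.56 CPM in WT and 3.00 to 5.78 CPM in CD25 KO mice, but *Ncr1* and *Klra8*, which define these cells more closely, had at most 3 counts in every splenic library, so nearly all of this sum was *Klrb1c*. The part of these cells in the results below was not tested. In sorted bulk samples, fewer cells of a type and less RNA per cell cannot be told apart.

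Long noncoding RNAs are transcripts that are not translated and that act as RNA or serve as precursors of smaller RNAs. *Malat1* and *Neat1* are retained in the nucleus, where *Malat1* gathers in speckles of splicing factors and *Neat1* builds paraspeckles. *Gas5* carries small nucleolar RNAs (snoRNAs), which guide the modification of ribosomal RNA, in its introns. *Mir17hg* and *Mir155hg* are the host transcripts of the miR-17-92 cluster and of miR-155, microRNAs known in lymphocytes for controlling growth, survival and, for miR-155, Treg fitness. *Pvt1* lies next to *Myc*, and *Kcnq1ot1* silences an imprinted domain in cis.

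The microRNAs that the host transcripts release are shown because their seed, bases 2 to 8, decides which mRNAs they pair with. The mature sequences are from RefSeq on GRCm38.p6, 5′ to 3′, with the seed in capitals. The 6 hairpins of *Mir17hg* span 836 bases at chr14:115043671-115044506 on the + strand, and the hairpin of *Mir155hg* lies at chr16:84714140-84714204 on the + strand.
miR-17-5p: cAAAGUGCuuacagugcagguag
miR-20a-5p: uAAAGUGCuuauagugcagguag
miR-18a-5p: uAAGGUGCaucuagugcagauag
miR-19a-3p: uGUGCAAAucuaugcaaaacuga
miR-19b-3p: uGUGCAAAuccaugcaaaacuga
miR-92a-3p: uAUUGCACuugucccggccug
miR-155-5p: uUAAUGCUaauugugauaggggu

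Among the 13 mature sequences of both hosts in the table, miR-17-5p and miR-20a-5p shared the seed AAAGUGC, and miR-19a-3p and miR-19b-3p shared GUGCAAA. miR-18a-5p, miR-92a-3p and miR-155-5p each had a seed of their own. The libraries measured the host transcripts and not the mature microRNAs. Reads on the hairpins fall on exon bases that the annotation also gives to separate microRNA genes.

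Of the 8 RNAs, 12.5% passed FDR < 0.01 in the thymus and 25% in the spleen. An RNA without a call is not shown to be unchanged. At FDR < 0.01 in edgeR's quasi-likelihood test, *Malat1* rose in thymic Tregs, and *Gm26917* and *Mir17hg* fell in splenic Tregs. Thus 1 rose and 0 fell in the thymus, where 6.16% of 16986 tested genes were called (3.17% higher and 2.99% lower in CD25 KO). In the spleen, 0 rose and 2 fell, where 9.45% of 17463 tested genes were called (5.9% higher and 3.55% lower). The 8 had a median log2 fold change of 0.04 for thymic and -0.13 for splenic Tregs. At FDR < 0.05, 3 of the 8 were called in the thymus (23.3% of all genes), 3 in the spleen (17.2%) and 2 for the difference between tissues (16.9%). Of all tested genes with a long noncoding biotype, 69 were higher and 17 lower of 1913 in the thymus (median log2 fold change 0.12), and 41 were higher and 37 lower of 2024 in the spleen (median -0.08). In DESeq2, *Gm26917* also passed in the thymus (adjusted p = 0.000291) and *Gas5* in the spleen.

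**Figure D1:**
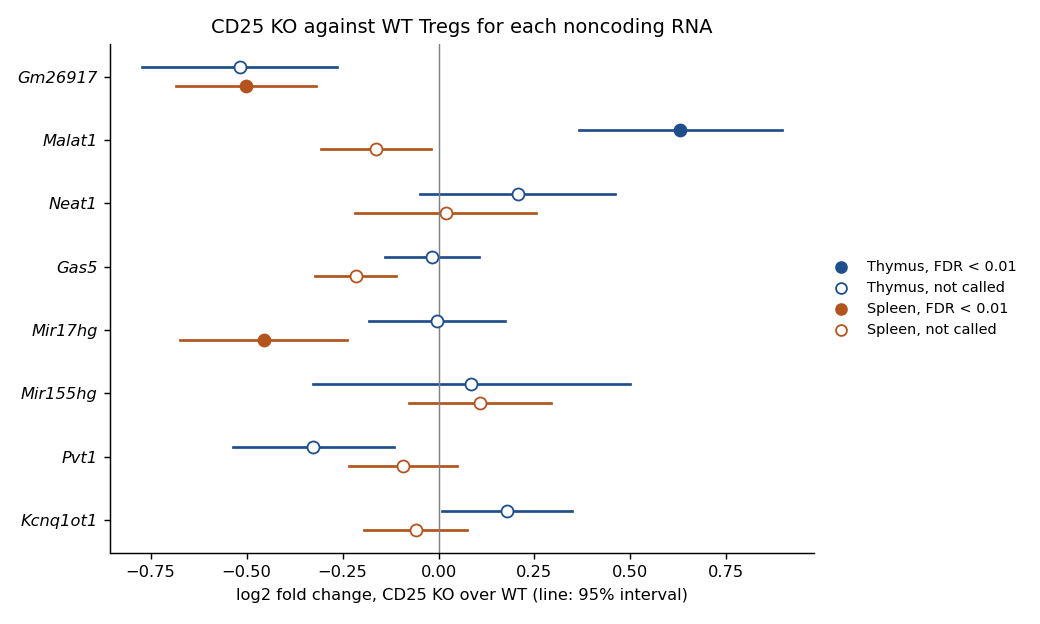
Log2 fold change of each noncoding RNA, CD25 KO over WT, in thymic and splenic Tregs, with points for the estimate, lines for the 95% interval and filled points for FDR < 0.01. Filled points are *Malat1* in the thymus, at 0.63, and *Gm26917* and *Mir17hg* in the spleen, at -0.50 and -0.46.

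*Gm26917* was by far the most abundant of the 8. The annotation gives it as a lincRNA with 1 exon of 3329 bases at chr17:39843013-39846341 on the + strand, of which 69.8% are G or C. It lies on a stretch of chromosome 17 beside a gene annotated as ribosomal RNA, CT010467.1, and in mouse data reads on it are generally taken to come from the precursor of ribosomal RNA. The libraries had been depleted of ribosomal RNA before sequencing. Its first 120 bases in the annotation's transcript (chr17:39843013-39843132, + strand) are shown so that the source of these reads can be looked up.
Gm26917, bases 1 to 120: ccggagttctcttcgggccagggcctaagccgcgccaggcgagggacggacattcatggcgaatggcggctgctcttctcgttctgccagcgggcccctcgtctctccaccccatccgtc

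In the thymus, *Gm26917* took 9.87, 11.2, 10.5, 9.79 and 11.4% of the counts of the 5 WT libraries and 6.92, 9.17, 7.37, 8.75 and 5.76% of those of the 5 CD25 KO libraries. The genotypes did not overlap, as was so for 15.8% of all genes tested in the thymus. Scaled to library size, the mean was 105297 ± 8971 CPM in WT mice against 73199 ± 13989 CPM in CD25 KO mice (SD, n = 5 per genotype). This log2 fold change of -0.52 (SE 0.13) did not pass FDR < 0.01 in edgeR's quasi-likelihood test (adjusted p = 0.0160). Without CD25 KO mice 2 and 4, which had the highest shares among the KO libraries, the log2 fold change was -0.71 (adjusted p = 0.000343), and without CD25 KO mouse 2 alone it was -0.60 (adjusted p = 0.00807). In the thymus, log2 fold changes of all genes fell with GC content (Spearman's rho = -0.41 across 16945 genes, which are not independent), and with this trend removed *Gm26917* stood at -0.37 (adjusted p = 0.0296). The 23 tested genes whose GC content lay within 2 percentage points of *Gm26917* had a median thymic log2 fold change of 0.03. The GC correction caps extreme values of GC content, and few genes lie near that of *Gm26917*. The corrected values of this RNA are therefore uncertain in both tissues.

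In the spleen, *Gm26917* fell in CD25 KO Tregs. It took 11.9, 13.2, 14.3 and 14.3% of the counts of the 4 WT libraries and 10.9, 9.51, 9.40 and 9.38% of those of the 4 CD25 KO libraries. The highest KO library lay below the lowest WT library, and 20.2% of all genes tested in the spleen likewise did not overlap. The means were 139498 ± 15714 CPM in WT mice against 99338 ± 6748 CPM in CD25 KO mice (SD, n = 4 per genotype), which gave a log2 fold change of -0.50 (SE 0.09, adjusted p = 0.00141). The call was kept in each of the 8 fits that left out 1 mouse, and with the GC trend removed the log2 fold change was -0.46. The effects in the 2 tissues differed by 0.03 (95% interval -0.32 to 0.38, adjusted p = 0.927).

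CT010467.1, the neighbouring ribosomal RNA gene, was examined after its values were seen. It ranged from 315 to 2225 CPM in thymic WT mice, with the highest value in WT mouse 3, and from 189 to 381 CPM in thymic CD25 KO mice, so the genotypes overlapped. In the spleen it was 642 to 1039 CPM in WT mice against 602 to 1004 CPM in the knockouts. In neither tissue did it pass the test (adjusted p = 0.0398 for the thymus, 0.818 for the spleen).

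**Figure D2:**
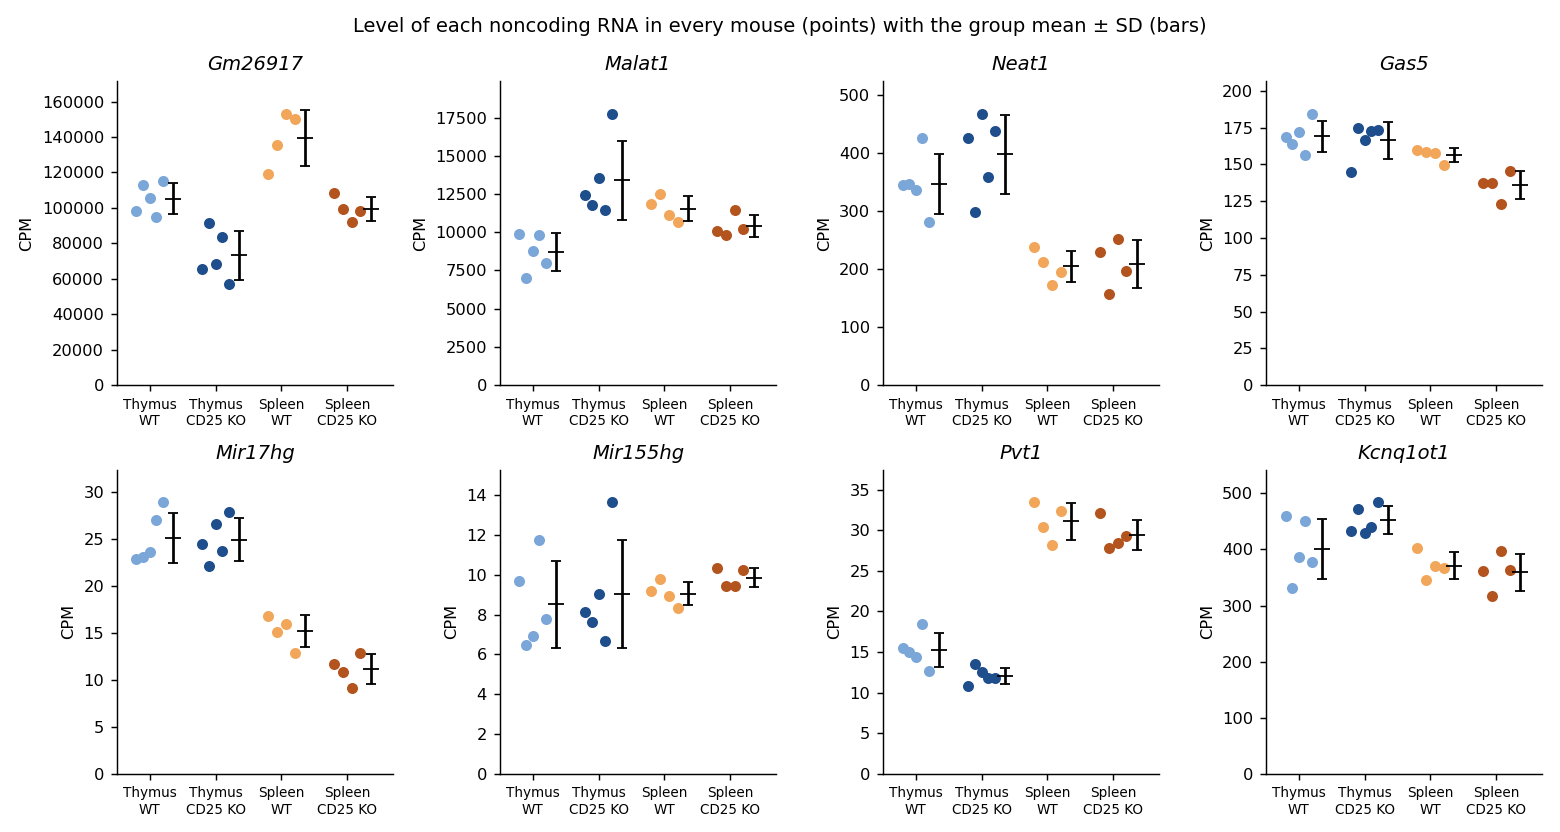
Level in CPM of each of the 8 noncoding RNAs in every mouse, with 1 point per mouse and bars for the group mean ± SD (thymus n = 5, spleen n = 4 per genotype). Thymic *Malat1* lay at 6984 to 9869 CPM in WT and 11465 to 17762 CPM in CD25 KO mice, and splenic *Gm26917* was lower in all 4 CD25 KO mice than in any WT mouse. Genotypes did not overlap for 15.8% of all genes tested in the thymus and 20.2% in the spleen.

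*Malat1* rose in CD25 KO Tregs of the thymus and was not called in those of the spleen. The gene is a single exon of 6983 bases at chr19:5795690-5802672 on the - strand. The 5 thymic WT mice had 9869, 6984, 8764, 9849 and 7975 CPM, and the 5 CD25 KO mice had 12413, 11752, 13580, 11465 and 17762 CPM. Every KO mouse lay above every WT mouse, with KO mouse 5 well above the rest. Genotypes did not overlap for 15.8% of all genes tested in the thymus. The rise was 54.8%, a log2 fold change of 0.63 (SE 0.13, adjusted p = 0.00885). In the spleen, WT mice had 11876, 12482, 11122 and 10642 CPM and CD25 KO mice 10102, 9847, 11431 and 10219 CPM. These groups overlapped, and the log2 fold change was -0.16 (95% interval -0.31 to -0.02, adjusted p = 0.147).

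The effects on *Malat1* differed between the tissues by -0.78 on the log2 scale (spleen minus thymus, SE 0.17, adjusted p = 0.00419, edgeR's quasi-likelihood test of the difference). Among the 18686 genes tested, 6.98% were called for this difference (4.5% higher in CD25 KO in the spleen than in the thymus and 2.49% lower), and *Malat1* was the only one of the 8 RNAs called. Leaving out splenic WT mouse 2, splenic CD25 KO mouse 2 or splenic CD25 KO mouse 4 ended this call (adjusted p = 0.0121, 0.0126 and 0.0107), while without thymic CD25 KO mice 2 and 4 the difference was -0.91 (adjusted p = 0.000438).

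The thymic call for *Malat1* was close to the threshold. It was lost without thymic WT mouse 1, 2, 3 or 5 or CD25 KO mouse 1 or 3, with adjusted p of 0.0114 to 0.0239, and it was kept without CD25 KO mice 2 and 4 (log2 fold change 0.76, adjusted p = 0.00242). With the GC trend removed the log2 fold change was 0.43 (adjusted p = 0.0147). The 2591 tested genes whose GC content lay within 2 percentage points of *Malat1*, which has 42.3%, had a median thymic log2 fold change of 0.20.

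Across the thymic CD25 KO mice, *Malat1* and *Gm26917* were ordered in opposite ways at the ends. KO mouse 5 had the lowest *Gm26917* share, 5.76%, and the highest *Malat1*, 17762 CPM. KO mice 2 and 4 had the highest *Gm26917* shares and the lowest *Malat1*, 11752 and 11465 CPM, and also the most *Il2ra*. The part of the remaining *Il2ra* in this order was not tested.

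**Figure D3:**
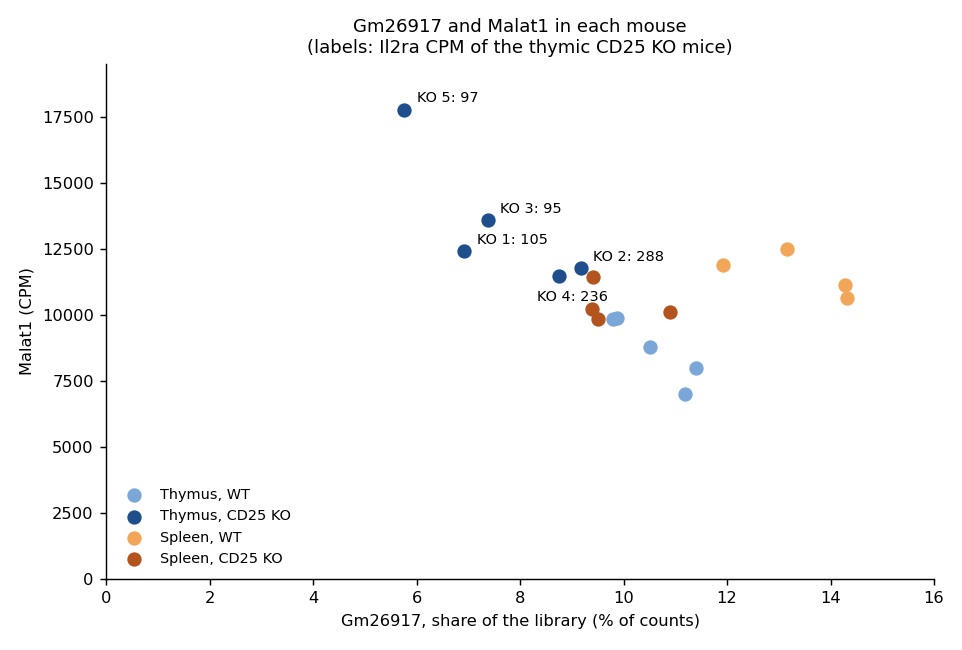
Share of counts taken by *Gm26917* (x axis, %) against *Malat1* (y axis, CPM), with 1 point per mouse coloured by group and the *Il2ra* CPM written beside the 5 thymic CD25 KO mice. The thymic CD25 KO mice lie at upper left, and KO mice 2 and 4, with 288 and 236 CPM of *Il2ra*, lie nearest to the WT mice.

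*Neat1*, the scaffold of paraspeckles, did not pass the test in either tissue. It is a single exon of 20771 bases at chr19:5824708-5845478 on the - strand, and in the CPM of each mouse it ranged from 281 to 426 in WT and 299 to 469 in CD25 KO Tregs of the thymus, and from 173 to 238 in WT and 158 to 252 in CD25 KO Tregs of the spleen. Its log2 fold change was 0.21 for thymic (95% interval -0.05 to 0.46, adjusted p = 0.266) and 0.02 for splenic Tregs (95% interval -0.22 to 0.25, adjusted p = 0.940). Of 12 proteins of paraspeckles, such as *Sfpq*, *Nono* and *Pspc1*, edgeR called 0 in both tissues. At an unadjusted p under 0.05 there were 8 for the thymus and 0 for the spleen, and DESeq2 called 4 and 0. The list had a median log2 fold change of 0.21 in the thymus (-0.0022 over all tested genes) and of 0.05 in the spleen (-0.0065 over all tested genes).

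*Gas5*, a snoRNA host, did not pass FDR < 0.01, although its level was lower in every splenic CD25 KO mouse than in any splenic WT mouse. The gene lies at chr1:161034422-161038539 on the + strand, with 3760 exonic bases. These are merged over 25 transcripts in a span of 4118 bases, and 10 other annotated genes share some of them. Its level per kilobase of exon, given below, rests on this merged length. The splenic WT mice had 159.6, 158.4, 157.9 and 149.6 CPM and the CD25 KO mice 137.5, 137.3, 123.0 and 145.7 CPM. The groups did not overlap, and neither did those of 20.2% of all genes tested in the spleen. *Gas5* thus had a log2 fold change of -0.22 (SE 0.05, adjusted p = 0.0110). It passed FDR < 0.01 without CD25 KO mouse 4 (adjusted p = 0.00913), in DESeq2 (adjusted p = 0.00206) and in 6 of 8 alternative fits in all. In the thymus, *Gas5* was 157 to 185 CPM in WT mice against 145 to 175 CPM in the knockouts (log2 fold change -0.02, 95% interval -0.14 to 0.11, turning to 0.02 with upper-quartile scaling and to -0.21 with the GC trend removed). The effects differed by -0.18 between the tissues, which did not pass the test (adjusted p = 0.126).

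Of the other snoRNA host RNAs, 4 of 13 tested in the spleen fell and 0 rose, against 3.55% of all genes called lower. These were *Snhg17* (log2 fold change -0.53, SE 0.07), *Snhg15* (-0.53, SE 0.09), *Snhg12* (-0.35, SE 0.08) and *Zfas1* (-0.29, SE 0.07). The calls of *Snhg17* and *Snhg15* were kept in all 8 fits that left out 1 mouse. That of *Snhg12* was lost without any 1 of the 4 WT mice (adjusted p up to 0.0134), and that of *Zfas1* was lost without WT mouse 2, 3 or 4 or CD25 KO mouse 2 or 3 (adjusted p up to 0.0366). *Snhg17* was 42.9 to 50.5 CPM in WT mice against 30.4 to 34.3 CPM in the knockouts. Its genotypes did not overlap, as for 20.2% of all genes tested in the spleen. The list's median log2 fold change was -0.25, and -0.0065 for all genes. In the thymus, 1 of 13 was called, *Snhg14*, which rose from 8.78 ± 2.14 to 17.9 ± 3.25 CPM (log2 fold change 1.03, SE 0.17, adjusted p = 0.00315), and the median was -0.03. The difference between tissues passed the test for *Snhg14* (-0.93, adjusted p = 0.00823) and *Snhg17* (-0.49, adjusted p = 0.00309).

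*Mir17hg*, the host of the miR-17-92 cluster, fell in CD25 KO Tregs of the spleen. The gene spans chr14:115042879-115046727 on the + strand. The splenic WT mice had 16.7, 15.1, 15.96 and 12.8 CPM and the CD25 KO mice 11.7, 10.8, 9.15 and 12.9 CPM. WT mouse 4, the lowest of the controls, and CD25 KO mouse 4, the highest of the knockouts, met at the same level, and the other 3 of each genotype were apart. *Mir17hg* fell by 27.1%, a log2 fold change of -0.46 (SE 0.11, adjusted p = 0.00958). Leaving out splenic WT mouse 1, 2 or 3 or CD25 KO mouse 1, 2 or 3 ended the call, with adjusted p of 0.0127 to 0.0321.

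In the thymus, *Mir17hg* was 22.9 to 28.9 CPM in WT mice against 22.1 to 27.8 CPM in the knockouts. Its log2 fold change was -0.0040 (95% interval -0.18 to 0.17, adjusted p = 0.979), and it was positive under some scalings and -0.31 with the GC trend removed (adjusted p = 0.0364). The effects differed between tissues by -0.44, which did not pass FDR < 0.01 (adjusted p = 0.0480).

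*Mir155hg*, which gives rise to miR-155-5p, was the least abundant of the 8 by CPM. It lies at chr16:84703167-84715245 on the + strand, with 3 exonic blocks of 1433 bases in all. It was 6.49 to 11.8 CPM in thymic WT mice, 6.67 to 13.7 CPM in thymic CD25 KO, 8.32 to 9.77 CPM in splenic WT and 9.43 to 10.4 CPM in splenic CD25 KO mice. Log2 fold changes were 0.09 for thymic (95% interval -0.33 to 0.50, adjusted p = 0.798, turning to -0.26 with the GC trend removed) and 0.11 for splenic Tregs (95% interval -0.08 to 0.29, adjusted p = 0.487).

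Among 16 genes widely described as targets of miR-155 or the miR-17-92 cluster, 1 rose and 1 fell of 15 tested in the thymus, and 2 rose and 2 fell of 16 in the spleen (6.16% and 9.45% of all tested genes were called). *Socs1*, an inhibitor of cytokine signalling described as a target of miR-155, fell in both tissues, from 56.2 ± 2.82 to 29.6 ± 2.65 CPM in the thymus (log2 fold change -0.92) and from 78.4 ± 4.55 to 58.0 ± 4.95 CPM in the spleen (-0.45). *Bcl2l11*, which encodes the pro-apoptotic protein Bim and is described as a target of the miR-17-92 cluster, rose in the thymus (0.44) and fell in the spleen (-0.34), and this difference passed the test (-0.76, adjusted p = 4.58e-06). *Maf*, a transcription factor, and *Rora*, a nuclear receptor, rose in the spleen by 0.78 and 0.45 on the log2 scale, and the *Rora* call was lost without WT mouse 2 or 3 (adjusted p up to 0.0118). The list had a median log2 fold change of -0.06 for thymic and 0.11 for splenic Tregs. Of the list of other microRNA host transcripts, edgeR called 0 of 4 in the thymus (1 at an unadjusted p under 0.05, 0 by DESeq2). That 1 was *Mirt1* (log2 fold change 0.25, SE 0.09), which is not an established microRNA host. In the spleen 1 of 4 was called, *Dleu2*, the host of miR-15a and miR-16-1, which rose from 50.3 ± 3.62 to 67.3 ± 3.22 CPM (log2 fold change 0.41, adjusted p = 0.000250).

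*Pvt1*, a long gene of 340111 bases at chr15:62037986-62378096 on the + strand with 21 exonic blocks, did not pass FDR < 0.01 in either tissue. In the thymus, WT mice had 15.5, 15.1, 14.4, 18.5 and 12.6 CPM and CD25 KO mice 10.8, 13.5, 12.6, 11.8 and 11.8 CPM. KO mouse 2 lay above WT mouse 5, so the groups overlapped, and the other 4 KO mice lay below every WT mouse. The fold change, at -0.33 on the log2 scale (SE 0.11), had an adjusted p of 0.0447. In the spleen, it was 28.2 to 33.5 CPM in WT mice against 27.9 to 32.1 CPM in the knockouts (log2 fold change -0.09, 95% interval -0.23 to 0.05, adjusted p = 0.420). *Myc*, the growth regulator next to *Pvt1*, fell in both tissues, by 0.96 on the log2 scale in the thymus (SE 0.11, adjusted p = 0.000364) and by 1.02 in the spleen (SE 0.07, adjusted p = 1.19e-07), without overlap between genotypes. The same lack of overlap was seen for 15.8% of all genes tested in the thymus and 20.2% in the spleen.

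*Kcnq1ot1* is an unspliced transcript of 93092 bases at chr7:143203458-143296549 on the - strand, antisense to *Kcnq1*. It was 331 to 460 CPM in thymic WT, 429 to 484 CPM in thymic CD25 KO, 345 to 403 CPM in splenic WT and 316 to 397 CPM in splenic CD25 KO mice. Its log2 fold change was 0.18 in the thymus (SE 0.087, adjusted p = 0.153), turning to -0.11 with the GC trend removed. The splenic value was -0.06 (95% interval -0.19 to 0.07, adjusted p = 0.611). Of the protein genes around it, 1 of 6 tested was called in the thymus, *Cd81*, which encodes a tetraspanin and fell from 83.1 ± 2.83 to 65.2 ± 6.83 CPM (log2 fold change -0.34, adjusted p = 0.00591). The *Cd81* call was kept only without CD25 KO mouse 2 or 4 among the 10 fits that left out 1 mouse (adjusted p up to 0.0218 in the other 8), and it was lost with the GC trend removed (-0.24, adjusted p = 0.0235), with the mouse number as a block (adjusted p = 0.0196) and in 1 fit of all 18 libraries (adjusted p = 0.0109). Of 8 tested in the spleen, *Kcnq1* rose from 0.186 ± 0.0291 to 0.638 ± 0.152 CPM (log2 fold change 1.75), *Ascl2* rose from 0.576 ± 0.156 to 1.61 ± 0.367 CPM (1.45), and *Tspan32* fell (-0.26). Splenic WT libraries held only 4 to 5 counts of *Kcnq1* and splenic CD25 KO libraries 11 to 23, so its fold change rests on counts near the floor of 3, and its call was lost without WT mouse 2 or CD25 KO mouse 4 (adjusted p up to 0.0113). The *Tspan32* call was lost without WT mouse 2 or 3 or CD25 KO mouse 4 (adjusted p up to 0.0142). *Kcnq1* shares 121 exonic bases with *Kcnq1ot1* on the other strand, and the strand setting of the counting is not given in the sources used here, so reads in that stretch cannot be told apart.

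Per kilobase of exon, the order of the 8 RNAs was the same at the top in each group. In thymic WT Tregs the mean was 31630.3 ± 2695 CPM per kilobase for *Gm26917*, 1244 ± 178 for *Malat1*, 45.0 ± 2.77 for *Gas5* and 16.7 ± 2.50 for *Neat1*. *Mir17hg* (7.10 ± 0.764), *Mir155hg* (5.95 ± 1.53) and *Kcnq1ot1* (4.31 ± 0.580) followed, each overlapping with the next within 1 SD, and *Pvt1* was lowest with 2.18 ± 0.304. In splenic WT Tregs the first 4 were 41904 ± 4720, 1651 ± 116, 41.6 ± 1.21 and 9.85 ± 1.32 CPM per kilobase in the same order. They were followed by *Mir155hg* (6.32 ± 0.419), and *Pvt1* (4.44 ± 0.331), *Mir17hg* (4.29 ± 0.481) and *Kcnq1ot1* (3.99 ± 0.258) did not differ beyond their spread. *Pvt1* had 15.2 ± 2.13 CPM in thymic and 31.1 ± 2.32 CPM in splenic WT mice, and *Mir17hg* had 25.1 ± 2.70 and 15.2 ± 1.70 CPM, without overlap between tissues in either case. *Neat1* was likewise higher in every thymic mouse, at 281 CPM or more, than in any splenic mouse, at 252 CPM or less. These levels are descriptions, since tissue, library date, age and mouse model changed together.

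**Figure D4:**
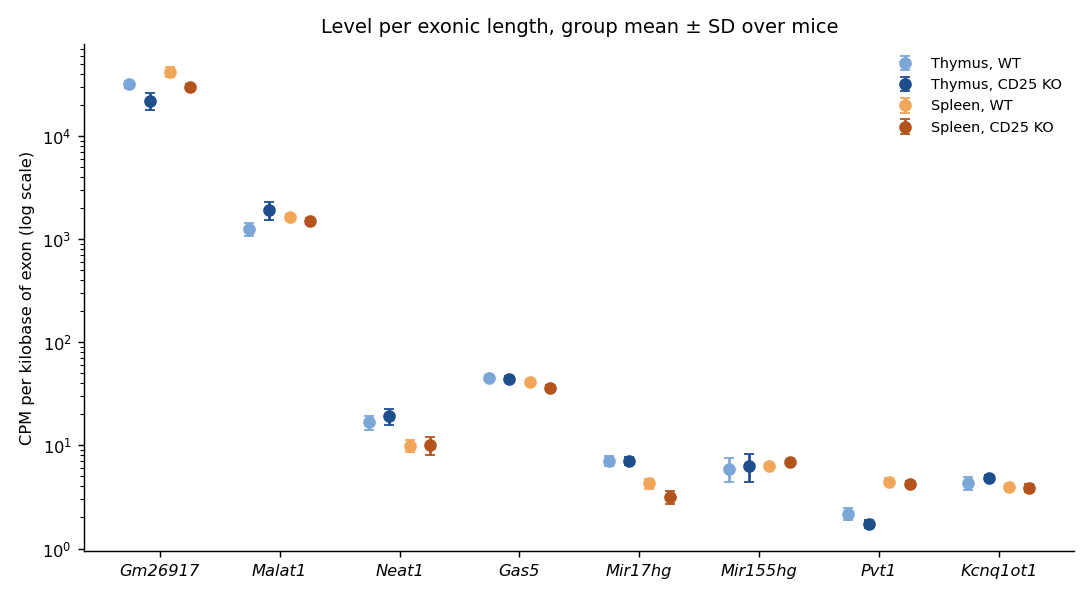
Mean level per exonic length (CPM per kilobase, log axis) of the 8 noncoding RNAs in the 4 groups, with error bars of 1 SD over mice. *Gm26917* and *Malat1* stand far above the other 6 RNAs in all groups, with *Gas5*, the next, at 45.0 CPM per kilobase in thymic WT mice.

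Of the other named regulatory lncRNAs, *Flicr*, which lies beside *Foxp3*, fell in both tissues. In the thymus it was 48.6 ± 7.28 CPM in WT against 33.2 ± 4.55 CPM in CD25 KO Tregs (log2 fold change -0.54, adjusted p = 0.00769), a call lost in 8 of the 10 fits that left out 1 mouse, all but those without WT mouse 3 or CD25 KO mouse 5 (adjusted p up to 0.0225). It was also lost with the mouse number as a block (adjusted p = 0.0182) and without CD25 KO mice 2 and 4 together (adjusted p = 0.0133). In the spleen it was 43.6 ± 3.64 and 27.4 ± 1.599 CPM (log2 fold change -0.69, adjusted p = 9.9e-06). *Foxp3* itself fell by 0.74 (thymus) and 0.55 (spleen) on the log2 scale. In the spleen, *Gm14005* (also known as *Morrbid*), a lncRNA next to *Bcl2l11*, rose from 2.50 ± 0.499 to 6.29 ± 0.441 CPM (log2 fold change 1.31, adjusted p = 2.92e-05), *Dubr* rose (0.29, adjusted p = 0.00944), and *Airn*, which silences an imprinted domain around *Igf2r*, fell from 17.5 ± 1.69 to 9.45 ± 2.52 CPM (-0.91, adjusted p = 0.000627). *Gm14005* and *Airn* were called in all 8 fits that left out 1 splenic mouse, whereas *Dubr* was called only in the fit without CD25 KO mouse 1 (adjusted p up to 0.0384 in the other 7). The difference between tissues passed the test for *Gm14005* (1.86, adjusted p = 0.000224) and *Airn* (-1.14, adjusted p = 0.00108). In all, 1 of 14 thymic and 4 of 16 splenic tests passed.

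Genes of other structural RNAs were set beside *Gm26917*. In the thymus 1 of 8 was called, the 7SL RNA copy *Rn7s1*, which fell from 2.50 ± 0.452 to 1.24 ± 0.372 CPM (adjusted p = 0.00960). The list's median log2 fold change was -0.45. The largest falls were those of genes at a low level, *Gm15564*, *Rn7s1*, *Rn7s2* and *Rn7s6*, with thymic WT means of 8.04, 2.50, 2.20 and 2.00 CPM. *Gm15564* varied widely among thymic WT mice (SD 14.0 CPM), its genotypes overlapped, and it was not called. The more abundant *Rmrp*, *Rpph1*, *Rn7sk* and *Terc* stood at -0.36, -0.13, -0.08 and -0.04, and none was called. *Rn7s1* has near-identical copies, so its counts are uncertain, and its call was lost under RLE and upper-quartile scaling and without CD25 KO mice 2 and 4 (adjusted p = 0.0305). It was also lost in 9 of the 10 fits that left out 1 mouse, all but the one without CD25 KO mouse 5 (adjusted p up to 0.0258). In the spleen edgeR and DESeq2 each called 0 of 8, with 2 at an unadjusted p under 0.05. *Rn7sk*, an abundant RNA that restrains transcription elongation, was 22647 to 25538 CPM in WT mice against 15735 to 31596 CPM in CD25 KO mice of the thymus. Its genotypes overlapped, and the log2 fold change was -0.08 (adjusted p = 0.730).

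**Figure D5:**
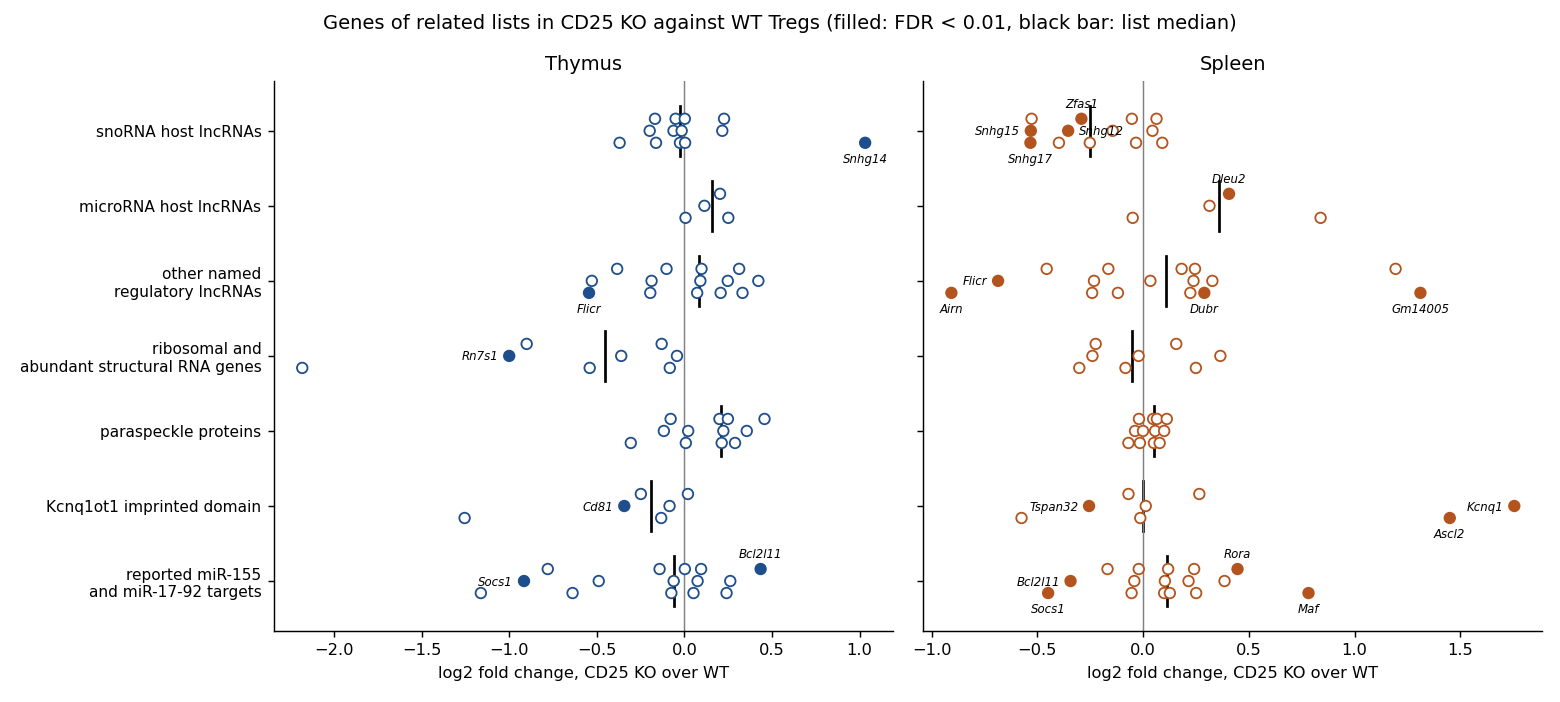
Log2 fold changes, CD25 KO over WT, of the tested genes of 7 related lists in thymic (left) and splenic (right) Tregs, with 1 circle per gene, filled and named where FDR < 0.01, and a black bar at the list's median. In the spleen, 4 snoRNA host RNAs are filled on the negative side, and *Gm14005*, *Kcnq1* and *Ascl2* are the called genes with the highest values.

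The genes whose pattern was most like each RNA were sought among 12933 genes by Pearson's r of log2 CPM over the 18 libraries, each tissue centred on its mean. The libraries share depth, batch and genotype effects, so r is a description. For *Gm26917* these were *Usp36*, *Gart* and *Mybbp1a* (r = 0.961, 0.961 and 0.959). For *Malat1* they were *Nktr*, *Tia1* and *Eml5* (0.973, 0.970 and 0.966). *Neat1* was most like *Gm27240*, *Fbxl12* and *Mgst2* (0.888, 0.883 and 0.858), and *Gas5* was most like *Snhg1*, *Hmgcs1* and *Zfas1* (0.870, 0.830 and 0.824), of which *Snhg1* and *Zfas1* are on the snoRNA host list. *Mir17hg* was most like *Gm28512*, *Jag2* and *Zfp672* (0.822, 0.773 and 0.772), and *Mir155hg* like *Cdc37l1*, *Map3k19* and *Gm9856* (0.875, 0.861 and 0.859). *Pvt1* followed *Il10rb*, *Arhgef12* and *Myo3b* (0.861, 0.846 and 0.837), and *Kcnq1ot1* followed *Myo9a*, *Gm43011* and *Gm37186* (0.945, 0.894 and 0.888). The highest values were thus found for *Malat1* and *Gm26917*, which also have the most counts.

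Promoter windows of 300 bases, 250 before to 50 after the start site, were listed in RefSeq (GRCm38.p6) for 5 of the 8 RNAs. The window of *Mir17hg* (chr14:115044140-115044439) lies among its microRNA hairpins, and that of *Mir155hg* (chr16:84712773-84713072) lies inside the gene, far downstream of its annotated start, so neither covers the annotated start of the host gene, and they are left out of what follows. The windows of *Malat1*, *Gas5* and *Kcnq1ot1* were searched on both strands for the STAT site TTCNNNGAA. The E-box was searched as CACGTG. The AP-1 site was searched as TGANTCA. The TATA box was searched as TATAAA. The cyclic AMP response element (CRE) was searched as TGACGTCA. Its half-site, which the full CRE contains, was searched as TGACGT. All 3 had a window with a CRE half-site that starts 43 to 46 bases before the RefSeq start site, and in *Gas5* it is a full CRE. This *Gas5* window was kept although it too lies inside the gene, downstream of the annotated start. RefSeq gives *Gas5* a second window (chr1:161034351-161034650), which covers the annotated start and held none of the motifs. Of 32851 promoter windows, 7.51% held the half-site and 1.79% the full element. The other motifs were not found in the windows of these 3 RNAs, and they occur in 8.30% (STAT), 7.15% (E-box), 7.81% (AP-1) and 13.6% (TATA) of all windows. The 3 windows are shown 5′ to 3′ on the strand of the gene, with the CRE matches in capitals. The CRE half-site is the sequence feature that these windows share. A match says nothing about binding, and the 3 RNAs did not move together in the comparisons above.
Malat1, chr19:5802623-5802922, - strand: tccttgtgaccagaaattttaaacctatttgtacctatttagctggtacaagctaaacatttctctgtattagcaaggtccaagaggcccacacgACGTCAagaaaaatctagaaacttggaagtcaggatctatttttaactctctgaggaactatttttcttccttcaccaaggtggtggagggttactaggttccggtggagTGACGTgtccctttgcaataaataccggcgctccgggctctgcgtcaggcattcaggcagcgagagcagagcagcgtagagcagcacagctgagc
Gas5, chr1:161034916-161035215, + strand: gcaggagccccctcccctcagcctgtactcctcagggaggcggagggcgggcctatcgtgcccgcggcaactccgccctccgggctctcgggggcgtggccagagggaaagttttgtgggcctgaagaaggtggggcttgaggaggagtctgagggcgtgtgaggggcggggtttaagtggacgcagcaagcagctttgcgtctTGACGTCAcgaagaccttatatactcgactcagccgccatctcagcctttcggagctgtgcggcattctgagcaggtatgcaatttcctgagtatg
Kcnq1ot1, chr7:143296498-143296797, - strand: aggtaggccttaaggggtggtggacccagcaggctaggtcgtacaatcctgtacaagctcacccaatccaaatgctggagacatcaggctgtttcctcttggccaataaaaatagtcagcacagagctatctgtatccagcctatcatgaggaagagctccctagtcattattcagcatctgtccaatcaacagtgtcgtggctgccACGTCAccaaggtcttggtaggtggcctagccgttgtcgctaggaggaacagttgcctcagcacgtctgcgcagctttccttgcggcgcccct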

How the data were processed

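Raw counts per gene were deposited by the authors as 1 table for 18 libraries, without normalization. Libraries were made from total RNA depleted of ribosomal RNA with the KAPA RNA HyperPrep kit. Per the submitters' processing notes, STAR 2.5.0b mapped the paired-end reads (GRCm38) and featureCounts 1.5.0 assigned them to GENCODE M13 genes. The strand setting is not given in the sources used here. Symbols, coordinates, exonic length and GC content came from GENCODE M21 on the same build, which named 50376 of 50600 identifiers.

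Groups were taken from the sample labels. In R 4.3.3 with edgeR 4.0.16, genes passing filterByExpr were scaled by TMM within each tissue. The genotypes were tested against each other with the quasi-likelihood test, with Benjamini-Hochberg adjustment over all genes tested and DE genes called at FDR < 0.01. The difference between tissues was a contrast in 1 fit of all 18 libraries. CPM were scaled by TMM over all libraries. DESeq2 1.42.0, RLE and upper-quartile scaling, leaving *Gm26917* out of library sizes, other filters on low counts, a GC correction (a spline with 5 degrees of freedom), 1 fit of all libraries, the mouse number as a block and leaving out each mouse were alternatives. Leaving out thymic CD25 KO mice 2 and 4 was added after seeing the data. In the GC correction and similar-gene search, log2 CPM had a prior count of 2, and similar genes needed a mean log2 CPM of at least 1.

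The 8 RNAs, the lists and the tests were chosen with earlier results of these data known. Named are the 8 RNAs, up to 3 called genes per list, direction and tissue, *Il2ra*, and the 3 genes most like each RNA. *Myc* and *Foxp3* were added as neighbours of *Pvt1* and *Flicr*, and CT010467.1 as the neighbour of *Gm26917*. The structural RNA genes were named to show which of them carry the list's median. In counts simulated from the real libraries with 200 genes changed by 2-fold, edgeR called 90.5% of them in the thymus with 2 false calls among 16930 genes, 94.5% in the spleen with 12 among 17407, and 73% for the difference with 3 among 18580. The changed genes were drawn above a minimum level, and each gene's counts were drawn independently, without the GC trend. The 8 RNAs moved by less than 2-fold (*Malat1* in the thymus by 0.63 on the log2 scale), so these rates do not tell how often such changes would be called. Floors of 3 counts cover counting error only, and p-values measure the spread between mice.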

Additional observations from a re-analysis of the deposited data

Results flagged for a closer look

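The effect of CD25 loss on *Malat1* differed between splenic and thymic Tregs by -0.78 on the log2 scale (adjusted p = 0.00419, edgeR's quasi-likelihood test of the difference), with higher levels in 5 of 5 thymic CD25 KO mice than in any thymic WT mouse. Genotypes were likewise without overlap for 15.8% of all genes tested in the thymus. Tissue, library date, age and mouse model cannot be told apart in this difference between tissues.

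*Gas5* stood apart in 1 mouse in each of 2 groups. Thymic CD25 KO mouse 1 had 144.8 CPM against 166.5 to 174.9 CPM in the other 4, and splenic WT mouse 4 had 149.6 CPM against 157.9 to 159.6 CPM in the other 3. Dixon's test at the 95% level was applied to 32 groups of values, and chance flags about 1 in 20 of them.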

How the results depend on the processing

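Of the 8 RNAs, *Malat1* in the thymus was called in 7 of 10 alternative settings (log2 fold change 0.42 to 0.67), its difference between tissues in 7 of 7 (-0.86 to -0.63), *Gm26917* in the spleen in 6 of 7 (-0.53 to -0.46) and *Mir17hg* in the spleen in 7 of 8 (-0.51 to -0.45). The count of RNAs called in the thymus, 1 as reported, was 2 with DESeq2, no filter on low counts or without thymic CD25 KO mice 2 and 4, 3 with all 18 libraries in 1 fit or FDR < 0.05, and 0 with the GC trend removed. In the spleen it was 0 with all 18 libraries in 1 fit, and for the difference it was 2 at FDR < 0.05. The causes were not tested.

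The numbers of the thymic mice did not pair them (correlation of same-numbered deviations -0.24 to 0.14). With the replicate block, 0 of the 8 RNAs and 209 genes were called in the thymus, against 1047 as reported (205 with the block and the GC correction), and *Malat1* stood at 0.62 (adjusted p = 0.0303). Splenic samples were not blocked.

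All genes called in the thymus numbered 2763 with DESeq2, 2881 in 1 fit of all libraries, 2008 without CD25 KO mice 2 and 4 and 3951 at FDR < 0.05. In the spleen they numbered 795 in 1 fit of all libraries and 3001 at FDR < 0.05, against 1651. For the difference they numbered 2188 with DESeq2, 2307 without the 2 mice and 3149 at FDR < 0.05, against 1305. Upper-quartile scaling moved the share of thymic calls higher in CD25 KO from 51.5 to 64.7% and that of the difference from 64.4 to 47.9%.

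Counts over the lists moved by over 1.5 times as follows. snoRNA hosts in the thymus numbered 2 with DESeq2, in 1 fit of all libraries, without the 2 mice or at FDR < 0.05, and 0 with the block. MicroRNA hosts in the spleen numbered 2 with DESeq2 or FDR < 0.05, 3 without a filter and 0 in 1 fit. Other lncRNAs in the thymus numbered 2 with upper-quartile scaling, DESeq2, 1 fit or FDR < 0.05 and 0 with the block or without the 2 mice, and 7 in the spleen without a filter. Structural RNAs in the thymus numbered 2 with DESeq2, 1 fit or FDR < 0.05 and 0 under RLE, upper-quartile scaling, without *Gm26917* in library sizes, with the GC trend removed, with the block or without the 2 mice, and 1 in the spleen without a filter. Paraspeckle proteins in the thymus numbered 4 with DESeq2, 1 with the GC trend removed, 3 in 1 fit, 2 without the 2 mice and 5 at FDR < 0.05. Genes around *Kcnq1ot1* in the thymus numbered 0 with the GC trend removed, in 1 fit or with the block and 2 without the 2 mice or at FDR < 0.05. MicroRNA targets in the thymus numbered 4 in 1 fit or without the 2 mice and 6 at FDR < 0.05.

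Leaving out 1 mouse at a time gave 0 to 2 of the 8 RNAs called in the thymus, 1 to 3 in the spleen and 0 to 1 for the difference, and 371 to 1087, 1099 to 1723 and 817 to 1489 genes in all. In the thymus the lists ranged from 1 to 2 (snoRNA hosts), 0 to 2 (other lncRNAs, structural RNAs and genes around *Kcnq1ot1*), 0 to 1 (paraspeckle proteins) and 2 to 3 (microRNA targets), and in the spleen from 2 to 4 (snoRNA hosts), 1 to 2 (microRNA hosts), 3 to 5 (other lncRNAs), 1 to 3 (genes around *Kcnq1ot1*) and 3 to 4 (microRNA targets).

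Changes of sign were seen among values that were not called. With upper-quartile scaling, *Gm26917* and *Mir155hg* for the difference stood at -0.044 and -0.040, *Neat1* in the spleen at -0.0081, *Gas5* in the thymus at 0.019 and *Mir17hg* in the thymus at 0.033. With the GC trend removed, *Gm26917* stood at -0.081 and *Kcnq1ot1* at 0.0062 for the difference, and *Mir155hg* stood at -0.26 (-0.27 with the block) and *Kcnq1ot1* at -0.11 in the thymus, with or without the block. *Mir17hg* in the thymus stood at 0.0013 under RLE, 0.0057 without *Gm26917* in library sizes, 0.00059 with DESeq2 and 0.075 without the 2 mice, and *Mir155hg* at -0.16 for the difference without the 2 mice. Leaving out 1 mouse gave -0.049 to 0.11 for *Gm26917* (difference), -0.086 to 0.13 for *Neat1* (spleen), -0.041 to 0.030 for *Gas5* (thymus), -0.043 to 0.054 for *Mir17hg* (thymus), -0.11 to 0.23 for *Mir155hg* (thymus) and -0.12 to 0.23 for *Mir155hg* (difference). Leaving *Gm26917* out of the library size raised the levels of the other RNAs, and 18 of 60 group means moved by more than 1 SD under this or plain scaling. With 3 counts as floor, *Kcnq1* and *Ascl2* in the thymus and *Kcnq1* in splenic WT mice were near the limit of depth.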
